A study of Mus musculus with 18 samples.

Results

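Gene expression was compared between bone marrow neutrophils labelled Zeb2-deficient and neutrophils of controls given the same treatment. The comparison used 8 of the 18 arrays of the study, 4 labelled Zeb2-deficient (numbers 1 to 4) and 4 controls (numbers 1, 2, 4 and 5), chosen by their labels and not by any measured value. Neutrophils were sorted from C57BL/6 mice. The controls carried floxed Zeb2 alleles alone, Zeb2(fl/fl), and the others carried the same alleles with an Mx1-Cre transgene, Zeb2(fl/fl);Mx1-Cre(tg). The Mx1 promoter that drives this recombinase is switched on by interferon, so recombination is not limited to neutrophils or to blood cells. Mice of both genotypes were injected intraperitoneally with poly(I:C), a synthetic double-stranded RNA that triggers interferon, in 2 doses of 150 µg within 48 h. Their marrow was collected after a further 3 weeks. Since no control carried Cre, an effect of the recombinase and one of Zeb2 loss cannot be told apart. A control numbered 3 received no poly(I:C) and stayed out of the comparison. Whether each array stands for a different animal is not in the labels. The p-values therefore rest on the spread among samples, part or all of which may be technical. The main fit estimated that spread from all 18 arrays of the study, not from these 8 alone. The other arrays came from monocytes with high surface Ly-6C, and 8 of them, grouped the same way, serve here as the reference for the same contrast.

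Zeb2 encodes a large protein with a zinc-finger cluster near each end, which binds paired CACCT-type sites in DNA and represses transcription with partners such as CtBP and the NuRD complex. It is best known, with its relative Zeb1, for repressing epithelial genes such as Cdh1, and it is also needed for several blood lineages to mature. Neutrophils arise in marrow from promyelocytes, which fill primary granules with enzymes such as myeloperoxidase. They then stop dividing, make secondary and gelatinase granules, and are held in marrow through the receptor Cxcr4 until Cxcr2 and Csf3r signals release them.

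Values are log2 intensities, so that a difference of 1 is a 2-fold change, and their precision is limited by how few arrays there were. Arrays of a neutrophil group correlated at 0.970 to 0.987. The arrays fell into a pair of runs in the order of deposit, called set A (controls 1 and 2, labelled deficient 1 and 2) and set B (controls 4 and 5, labelled deficient 3 and 4), which lay on opposite sides of the first principal component (33.9% of the variance). The labels do not say what separates them. Each set held both genotypes, and between the control arrays alone 62 genes differed by set, 10 of them higher in set B. The cells matched their label: the summed linear intensity of 12 neutrophil markers ran from 63174 to 64570 in the controls and from 59895 to 62721 in the arrays labelled deficient, against 5414 to 17809 in control monocytes. The neutrophil groups did not overlap in this sum, the arrays labelled deficient being lower. For the 6 Ly-6C(hi) monocyte markers on the array the sums were 279.6 to 336 and 286 to 332, against 11006 to 12863 in control monocytes.

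The Zeb2 signal did not show a loss. The controls read 7.19, 6.86, 7.54 and 7.40, and the arrays labelled deficient read 7.72, 7.10, 7.85 and 8.25. The groups overlapped, and in each set the labelled deficient mean was the higher one. The change was 0.49 ± 0.24 (SE), or 1.40-fold, with an adjusted p of 0.972 in limma, with set A at 0.39 and set B at 0.59. The probe set covers the transcript as a whole, and which part was deleted is not in the labels. This level therefore does not check the deletion, and every direction here is that of arrays labelled Zeb2-deficient. Zeb1 did not move past the threshold either (7.31 ± 0.15 and 7.45 ± 0.17, SD, n = 4 each, limma adjusted p = 0.999). In monocytes the Zeb2 means were 9.92 and 9.45, a change of -0.48 that did not pass (limma adjusted p = 0.272). That change differed from the neutrophil one by -0.97 ± 0.33 (SE), which did not pass either (limma interaction, adjusted p = 0.16). In monocytes Zeb1 rose by 1.31, and that change differed from the neutrophil one by 1.17 (limma interaction, adjusted p = 0.0152).

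Few genes were called in neutrophils. At a limma adjusted p under 0.05, 16 of 13387 genes tested passed (0.12%), 14 higher (0.105%) and 2 lower (0.0149%) in the arrays labelled deficient. Without adjustment, 683 genes had p under 0.05 (5.1%), 345 higher (2.58%) and 338 lower (2.52%). For 459 genes (3.43%) the 4 arrays of one group lay wholly above those of the other, 246 higher (1.84%) and 213 lower (1.59%), and all 16 called genes were among them. The 14 that rose included a growth factor (Csf1), a fungal receptor (Clec4n), a steroid enzyme (Hsd17b2), a protease inhibitor (Cstdc6), a transcription factor (Egr2), a pair of LIM-domain proteins (Pdlim1 and Crip1) and an actin-binding peptide (Tmsb10). The 2 that fell were Penk and Adss. The median change over all genes was -0.01.

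**Figure D1:**
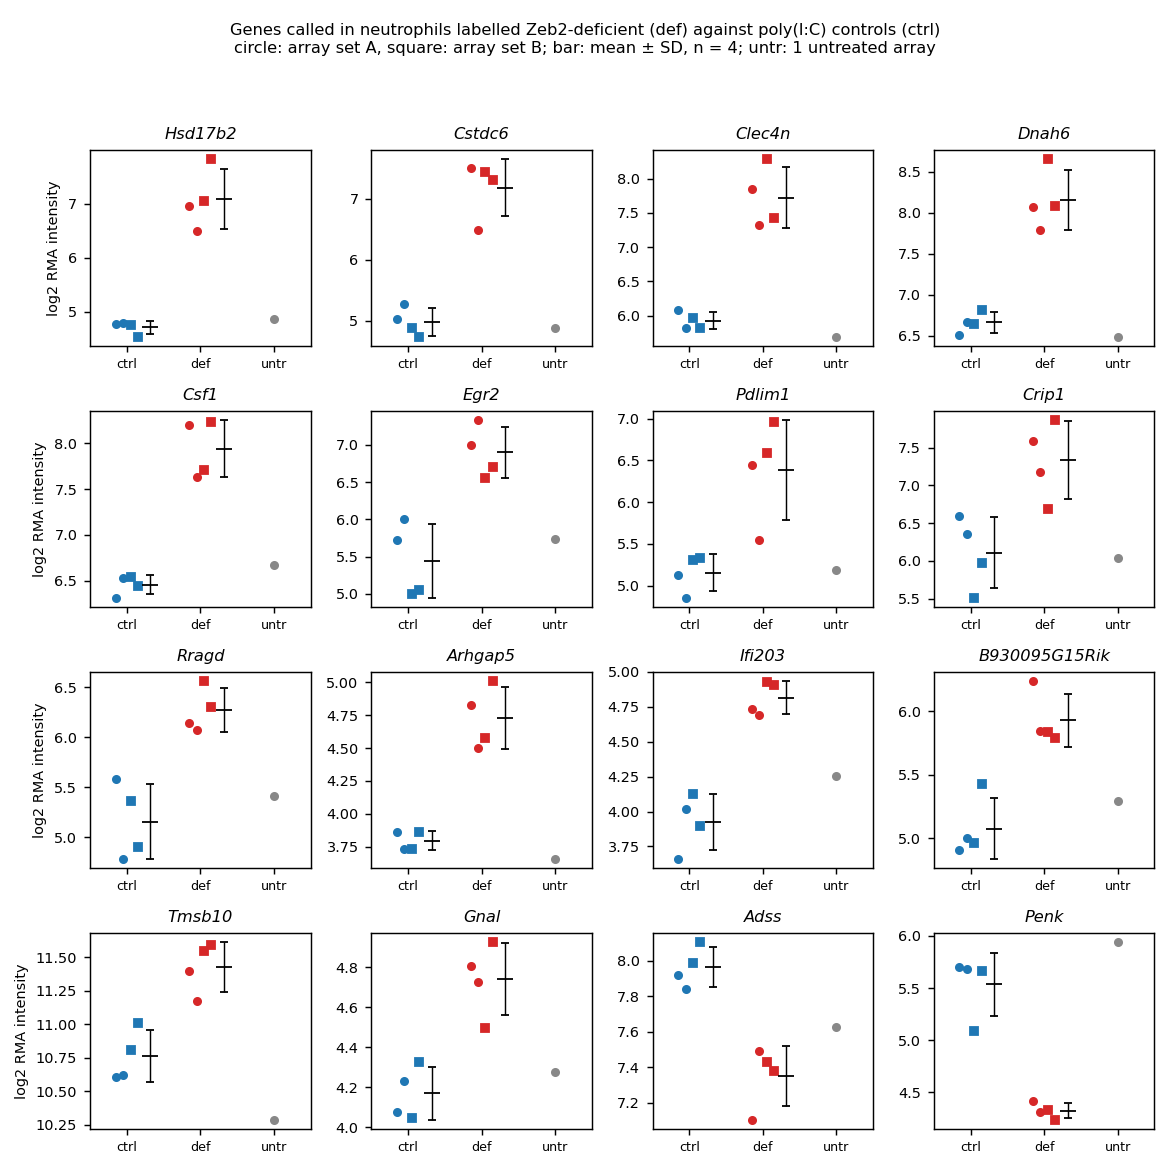
Log2 RMA intensity of the 16 called genes in each neutrophil array, with controls (ctrl) in blue, arrays labelled Zeb2-deficient (def) in red and the untreated control (untr) in grey; circles are set A, squares set B, and bars are means ± SD of n = 4. In every panel the red points lie wholly above the blue ones, or wholly below them for Penk and Adss.

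The called genes for secreted and surface signalling proteins included Csf1 and Clec4n. Csf1 encodes macrophage colony-stimulating factor, the growth factor of monocytes and macrophages. Its controls read 6.31, 6.53, 6.55 and 6.44 and its arrays labelled deficient 8.20, 7.63, 7.71 and 8.23. The lowest array labelled deficient stood above the highest control by more than the whole range of the controls. The rise was 1.48 ± 0.20 (SE), or 2.80-fold (limma adjusted p = 0.00258), with set A at 1.5 and set B at 1.47. Csf1 passed the threshold in all 22 alternative settings tried. Its receptor Csf1r did not pass, with a change of -0.06 (limma adjusted p = 0.999).

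Clec4n encodes dectin-2, a C-type lectin receptor that recognises fungal mannans and signals through the Fc receptor gamma chain. The controls lay close together at 6.09, 5.82, 5.96 and 5.83, and the arrays labelled deficient read 7.86, 7.32, 8.29 and 7.43. The gene rose by 1.80 ± 0.21 (SE), 3.48-fold, with a limma adjusted p of 0.000463. Other lectin receptors did not pass: Clec4d, next to it among the protein-coding genes of the reference, changed by 0.00, Clec4e by -0.16, and the beta-glucan receptor Clec7a by -0.13 (limma adjusted p of 0.999 each). Clec4n was the 1 called member of 34 tested Fc, complement and pattern receptors, of which 25 lay below 0. By set the median was -0.145 in set A, with 9 above 0, and 0.041 in set B, with 18 above 0. The next smallest p in that list belonged to the Toll-like receptor Tlr6, at 7.13 ± 0.16 in the controls and 6.67 ± 0.08 in the arrays labelled deficient (SD, n = 4 each, limma adjusted p = 0.381).

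The largest change of all was in Hsd17b2, which encodes an enzyme that oxidises oestradiol and testosterone to less active steroids. Its controls read 4.78, 4.79, 4.77 and 4.54, near the array medians of 4.85 to 4.92, and its arrays labelled deficient read 6.96, 6.49, 7.04 and 7.83. The rise was 2.36 ± 0.22 (SE), 5.13-fold (limma adjusted p = 3.61e-05). Other members of the family did not pass. Hsd17b11, an enzyme of lipid droplets, changed by -0.04 and Hsd17b7, an enzyme of cholesterol synthesis, by -0.50 (limma adjusted p of 0.999 and 0.868). The next gene on the chromosome, Mphosph6, changed by 0.61 without passing (limma adjusted p = 0.972).

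Cstdc6 belongs to the stefins, cytosolic inhibitors of cathepsin proteases that neutrophils make in several near-identical copies. The controls read 5.03, 5.28, 4.89 and 4.73 and the arrays labelled deficient 7.51, 6.49, 7.44 and 7.31, a rise of 2.20 ± 0.35 (SE), 4.60-fold (limma adjusted p = 0.0091). With the shared replicate numbers as a block the adjusted p was 0.0981. Other stefins tested did not pass: Stfa2 changed by 0.44 and Stfa3 by 0.01 (limma adjusted p of 0.999 each). Probes of such relatives can share signal, so the value belongs to the probe set rather than surely to this copy.

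Rragd and Adss are metabolic genes that went opposite ways. Rragd encodes RagD, a small GTPase that recruits the growth kinase mTORC1 to lysosomes. It read 5.58, 4.79, 5.36 and 4.91 in the controls and 6.14, 6.07, 6.56 and 6.31 in the arrays labelled deficient, and rose by 1.11 ± 0.15 (SE), 2.16-fold (limma adjusted p = 0.00261). Adss encodes adenylosuccinate synthase, which commits inosine monophosphate to adenine nucleotides. Its controls read 7.92, 7.84, 7.99 and 8.11 and its arrays labelled deficient 7.10, 7.49, 7.43 and 7.38, and it fell by 0.61 on the log2 scale (SE 0.11, limma adjusted p = 0.0304). With the replicate numbers as a block neither passed, at adjusted p of 0.0842 for Rragd and 0.361 for Adss. The untreated control read 7.63 for Adss, between the groups.

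Pdlim1 encodes a PDZ and LIM protein that links alpha-actinin to actin fibres. The controls read 5.13, 4.85, 5.31 and 5.33 and the arrays labelled deficient 6.45, 5.54, 6.59 and 6.96, so that array 2 labelled deficient stood nearest the controls. It rose by 1.23 ± 0.22 (SE), 2.35-fold (limma adjusted p = 0.0304), and its other probe set, which was not used in the test, was higher by 1.71 with no overlap between the groups. Pdlim1 passed in 13 of 22 alternative settings.

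Crip1 encodes a small LIM-domain protein abundant in monocytes. It read 6.60, 6.36, 5.51 and 5.98 in the controls and 7.59, 7.18, 6.69 and 7.87 in the arrays labelled deficient. The gap between the highest control and the lowest array labelled deficient was small, and control monocytes had a mean of 12.18 on the same probe set. It rose by 1.22 ± 0.23 (SE), 2.33-fold (limma adjusted p = 0.0327), and did not pass with the replicate numbers as a block (adjusted p = 0.146).

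Tmsb10 encodes thymosin beta 10, which binds actin monomers. Its controls read 10.60, 10.62, 10.81 and 11.01 and its arrays labelled deficient 11.40, 11.17, 11.55 and 11.59. The rise was small but tight, 0.66 ± 0.10 (SE), 1.58-fold (limma adjusted p = 0.00568), and a second probe set of the gene was higher by 0.71. Arhgap5, a GTPase-activating protein, read 3.86, 3.73, 3.73 and 3.86 in the controls, all below the 40th percentile of their arrays, and 4.82, 4.50, 4.57 and 5.01 in the arrays labelled deficient. It rose by 0.93 ± 0.14 (SE, limma adjusted p = 0.00563), a size that may understate the change since the controls lie near the floor.

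Dnah6 encodes a heavy chain of axonemal dynein, the motor of motile cilia. The probe set tested read 6.51, 6.67, 6.65 and 6.82 in the controls and 8.07, 7.79, 8.66 and 8.08 in the arrays labelled deficient, a rise of 1.49 ± 0.16 (SE), 2.81-fold (limma adjusted p = 0.000226). The other probe sets of the gene lay at group means of 2.70 and 2.95, and of 3.34 and 3.24, with overlapping groups. The rise was therefore seen by 1 of 3 probe sets, and with their mean in place of the brightest it was 0.55. Whether this probe set reads Dnah6 or a neighbouring transcript was not tested. In the reference, Dnah6 and Tmsb10 are next to each other among protein-coding genes, and no genome of the study's build was used to place the probes.

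The called genes with roles in transcription and signalling were Egr2, Ifi203, Gnal and Penk. Egr2 encodes a zinc-finger factor of the immediate early class. Its controls read 5.72, 6.01, 5.0 and 5.05 and its arrays labelled deficient 7.0, 7.34, 6.56 and 6.70. Both groups were lower in set B, and within each set the gap was wider than the spread, 1.31 in set A and 1.60 in set B. The rise was 1.45 ± 0.24 (SE), 2.74-fold (limma adjusted p = 0.0111). Its relatives did not pass, with changes of -0.11 in Egr1 and 0.11 in Egr3 (limma adjusted p of 0.999 each), and Egr2 was the 1 called gene of 26 immediate early and stress genes tested (median -0.02).

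Ifi203 belongs to the interferon-inducible HIN-200 family of nuclear DNA-binding proteins, which also has near-identical members. It read 3.66, 4.02, 4.12 and 3.90 in the controls, all below the 40th percentile, and 4.73, 4.69, 4.93 and 4.91 in the arrays labelled deficient. The rise of 0.89 ± 0.16 (SE) passed (limma adjusted p = 0.0304) but not with the replicate numbers as a block (0.334). It was the 1 called gene of 42 interferon-stimulated genes tested, which had a median of 0.08. In control arrays these genes had a median of 0.33 for set B minus set A, larger than the median between genotypes. Gnal, the olfactory-type stimulatory G-protein subunit, stood at 4.17 ± 0.13 and 4.74 ± 0.18 (SD, n = 4 each), all controls below the 40th percentile, and rose by 0.57 (limma adjusted p = 0.0327, and 0.146 with the replicate block). B930095G15Rik, a locus without a protein name, rose by 0.85 from 5.08 ± 0.24 to 5.93 ± 0.21 (SD, n = 4 each, limma adjusted p = 0.0206), and passed in 15 of 22 alternative settings.

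Penk encodes proenkephalin, the precursor of the enkephalin opioid peptides. The controls read 5.71, 5.69, 5.09 and 5.66, and the arrays labelled deficient read 4.42, 4.32, 4.33 and 4.24, all 4 of them below the 40th percentile of their arrays. The untreated control read 5.94. The signal fell by 1.21 on the log2 scale (SE 0.14), 2.31-fold, with a limma adjusted p of 0.000463. Like Csf1, Hsd17b2 and Dnah6, Penk passed in all 22 alternative settings.

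A fit that also held the array set as a block called 22 genes (0.164%), 19 higher and 3 lower, and they included all 16. The additional genes were Anxa4 (annexin A4), Clic4, Mta3, Scarb2 and Tubb2a, which were higher, and Rab23, which was lower. Mta3, a subunit of the NuRD corepressor, read 6.62, 6.40, 6.56 and 6.63 in the controls and 7.19, 7.31, 7.01 and 7.21 in the arrays labelled deficient, a difference of 0.63 ± 0.12 (SE) with a limma adjusted p of 0.0555, and 0.0235 with the block. Scarb2, the lysosomal membrane protein LIMP-2, differed by 0.71 (0.0779 and 0.0245). Tubb2a, a beta-tubulin, differed by 0.99 (limma adjusted p of 0.474, and 0.00377 with the block), and its controls read 6.57 and 5.93 in set A and 7.22 and 7.10 in set B. Rab23, a small GTPase, differed by -0.79 (0.117 and 0.0245), and the untreated control, at 6.72, lay among the arrays labelled deficient.

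Some other genes had groups that did not overlap and large differences, but did not pass either fit. On the lower side were Cmah, the hydroxylase that makes N-glycolylneuraminic acid (-0.93), and Tmem184c (-0.77), Dimt1, an rRNA methyltransferase (-0.75), Rhov (-0.68), the chemokine Ccl2 (-0.66), Csf2rb2, a beta subunit of the interleukin 3 receptor (-0.63), and Lzic (-0.62), with limma adjusted p from 0.205 to 0.999. Cmah showed how set and genotype combined: its controls read 7.61 and 7.73 in set A and 8.64 and 8.76 in set B, against 6.73, 7.44, 7.40 and 7.45. On the higher side, Mcpt8, a basophil protease, stood at 4.8 ± 0.26 and 5.93 ± 0.73 (SD, n = 4 each, limma adjusted p = 0.891), and array 4 labelled deficient alone read 7.01. Itgax, which encodes the integrin CD11c, stood at 5.70 ± 0.37 and 6.47 ± 0.12 (SD, n = 4 each, limma adjusted p = 0.126).

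Since Zeb factors bind CACCT, the promoters of the called genes were searched for it on both strands (CACCT or AGGTG). The search covered the 250 bases before each annotated start in RefSeq (GRCm38.p6). The 11 called genes with an entry included 4 with a match in any window (36.4%), against 49.4% of all genes, and the longer CACCTG or CAGGTG, which contains the first motif, was in 1 (9.09%, against 19.4%). A match is a description of letters and does not show binding. Shown here are the 250 bases before the start of Csf1, the called growth factor, which held no match, and of Pdlim1 and Rragd, which held 3 and 2, with the matches in capitals. They lie at chr3:107760470-107760719 on the minus strand, chr19:40271617-40271866 on the minus strand and chr4:32982748-32982997 on the plus strand, in that order, and each is written 5′ to 3′ on the strand of the gene.
Csf1: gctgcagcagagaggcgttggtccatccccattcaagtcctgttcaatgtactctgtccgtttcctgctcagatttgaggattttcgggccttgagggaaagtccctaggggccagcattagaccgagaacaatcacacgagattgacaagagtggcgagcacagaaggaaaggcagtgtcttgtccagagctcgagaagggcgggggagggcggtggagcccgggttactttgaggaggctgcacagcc
Pdlim1: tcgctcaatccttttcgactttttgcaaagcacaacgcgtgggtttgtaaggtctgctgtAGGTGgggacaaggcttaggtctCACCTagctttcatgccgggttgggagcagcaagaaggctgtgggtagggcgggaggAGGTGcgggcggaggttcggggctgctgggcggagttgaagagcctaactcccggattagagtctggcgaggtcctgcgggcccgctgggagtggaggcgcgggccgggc
Rragd: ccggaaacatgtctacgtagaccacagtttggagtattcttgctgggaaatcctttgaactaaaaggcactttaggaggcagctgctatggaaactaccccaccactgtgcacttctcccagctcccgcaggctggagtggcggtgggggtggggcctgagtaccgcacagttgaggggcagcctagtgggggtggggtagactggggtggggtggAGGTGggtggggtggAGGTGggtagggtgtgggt

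No gene of the lists that follow neutrophil maturation passed. All 33 lists together held 827 symbols, of which 663 were tested, and their members passed 4 times, each already named above. Over all genes 47.4% of changes lay above 0. Of 19 primary granule and promyelocyte genes, 14 lay above 0, and the median was 0.08. None passed limma's threshold, and none had an unadjusted p under 0.05. Mpo, myeloperoxidase, read 5.96, 4.82, 6.13 and 4.87 in the controls and 6.27, 4.99, 6.10 and 7.59 in the arrays labelled deficient. Elane, neutrophil elastase, read 5.04, 5.01, 4.85 and 5.03, against 5.40, 4.77, 5.74 and 6.61. In both, array 4 labelled deficient was the highest and the groups overlapped.

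Of 30 secondary granule genes 26 lay below 0, with a median of -0.14, and none passed limma's threshold (0 higher and 1 lower at an unadjusted p under 0.05). Their mean level was 11.10, 11.21, 11.06 and 11.12 in the controls and 10.999, 11.11, 10.92 and 10.94 in the arrays labelled deficient, so the groups overlapped through array 2. Lactoferrin (Ltf) differed by -0.22 and the cathelicidin Camp by -0.08. The smallest p in the list was that of haptoglobin (Hp), at 11.60 ± 0.28 and 11.25 ± 0.26 (SD, n = 4 each, limma adjusted p = 0.9002). The 29 gelatinase granule and mature neutrophil genes had a median of -0.03 with 0 called (0 higher and 1 lower unadjusted), and among them the surface marker Ly6g differed by -0.11, the chemokine receptor Cxcr2 by -0.03 and Csf3r, the receptor of granulocyte colony-stimulating factor, by 0.05. The retention receptor Cxcr4 differed by 0.04, in a list of 19 adhesion, exit and retention genes with a median of -0.03 and 0 called (2 higher and 0 lower unadjusted). The 9 genes of the NADPH oxidase, the source of the oxidative burst, had a median of -0.16 and 0 called (0 either way unadjusted), and Cybb, its catalytic subunit, differed by -0.26. The 20 genes of colony-stimulating factor signalling had a median of -0.05 and 0 called (0 higher and 1 lower unadjusted). That list does not hold the growth factor Csf1, which was called higher, as given above.

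**Figure D2:**
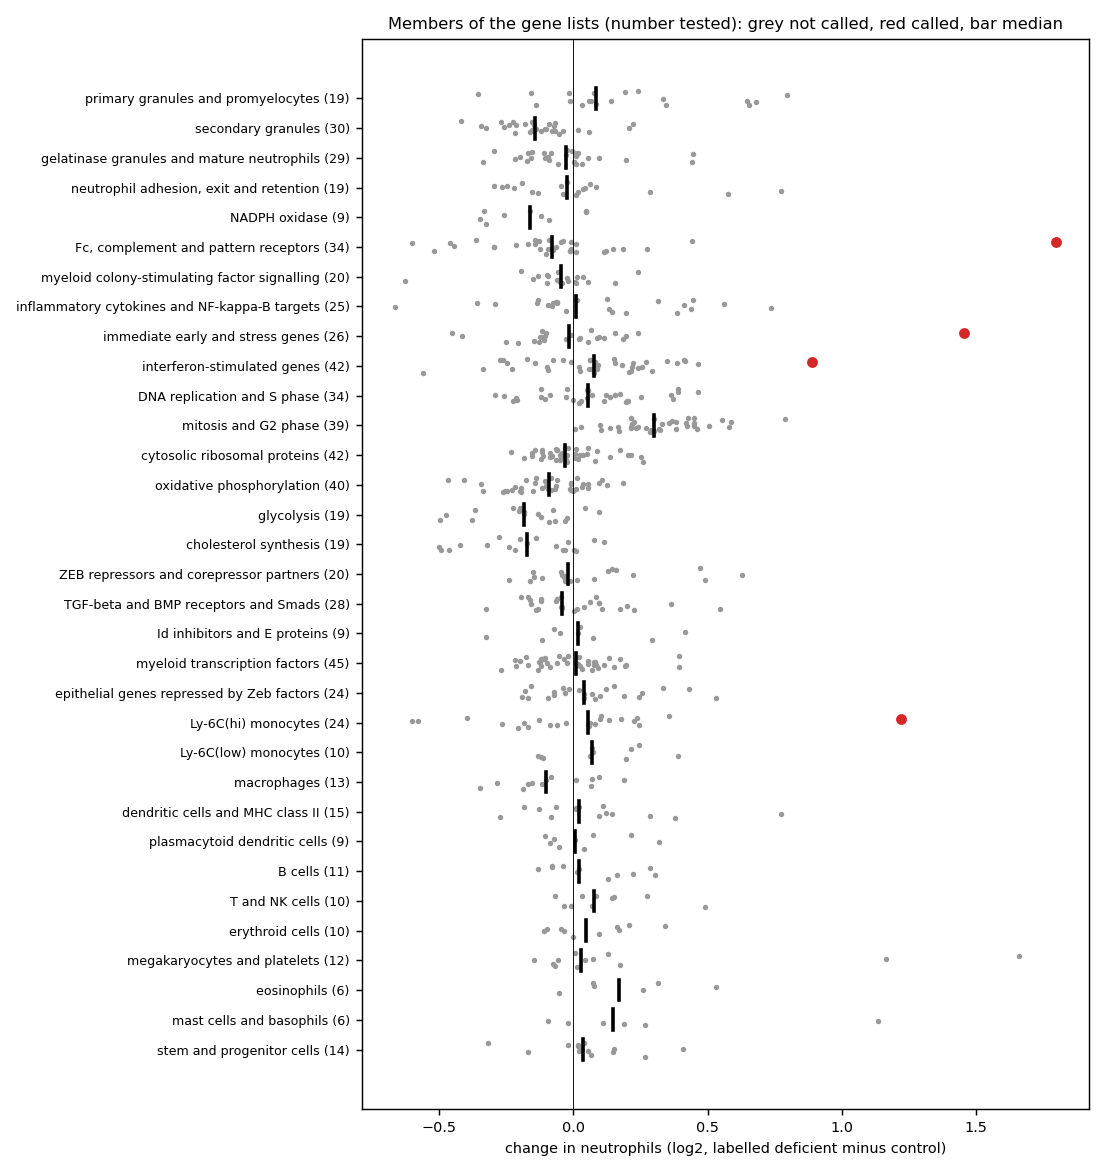
Change in neutrophils (log2, labelled Zeb2-deficient minus control) of each tested member of 33 gene lists, with the number tested in parentheses; grey points did not pass, red points passed, and the black bar is the median of the list. The mitosis and G2 list lies wholly above 0 with a median of 0.30 and no red point, and the 4 red points are Clec4n, Egr2, Ifi203 and Crip1.

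The mitosis list was the 1 list of the 33 with all its tested members on the same side of 0, and no member was called. All 39 tested mitosis and G2 genes lay above 0, with a median of 0.30, and 6 had an unadjusted p under 0.05, all of them higher. The median was 0.21 in set A, with 32 above 0, and 0.43 in set B, with 38. Ect2, the exchange factor that places the cleavage furrow, read 4.67, 5.09, 4.67 and 5.17 in the controls and 5.69, 5.37, 5.55 and 6.15 in the arrays labelled deficient, without overlap (limma adjusted p = 0.718). Cyclin A2 (Ccna2) read 7.40, 7.34, 7.29 and 7.56, against 7.85, 7.76, 8.21 and 8.09, also without overlap (0.806). The proliferation marker Mki67 read 8.49, 8.21, 8.49 and 8.66, against 8.60, 8.69, 9.24 and 9.11, and overlapped (0.9003).

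The mean level of the mitosis list was 6.35, 6.27, 6.23 and 6.54 in the controls and 6.54, 6.46, 6.74 and 6.94 in the arrays labelled deficient. Control 5 lay within the range of the arrays labelled deficient, and arrays 3 and 4 labelled deficient were the highest. The 34 genes of DNA replication and S phase, which come earlier in the cycle, had a median of 0.05, with 22 above 0 and 0 called (3 higher and 0 lower unadjusted). In bulk samples, more cells in division and more such RNA per cell cannot be told apart. The same arrays, 3 and 4, also read highest for the platelet gene Ppbp, at 9.38 and 10.46, and its part in these values was not tested.

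**Figure D3:**
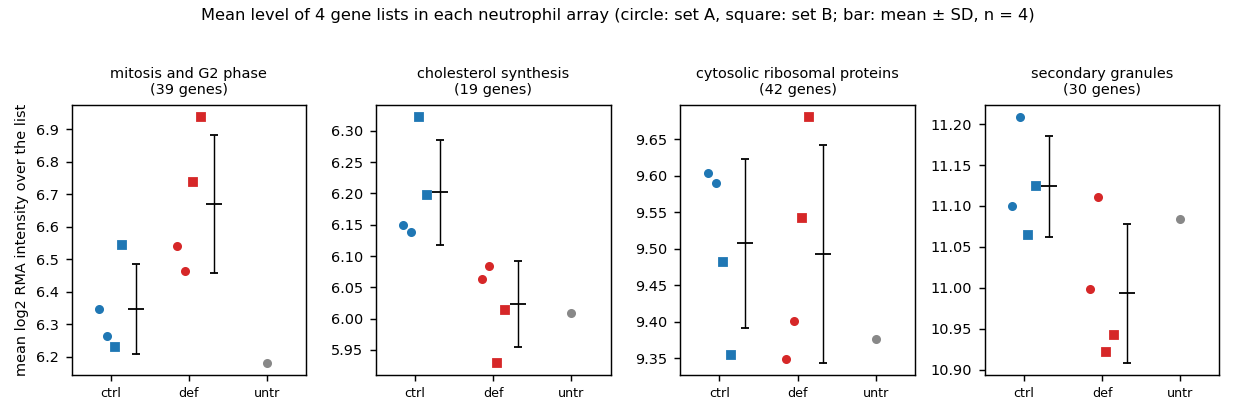
Mean log2 RMA intensity over 4 gene lists in each neutrophil array, with controls (ctrl) in blue, arrays labelled Zeb2-deficient (def) in red and the untreated control (untr) in grey; circles are set A, squares set B, and bars are means ± SD of n = 4. The mitosis list is highest in the red squares at 6.74 and 6.94, the cholesterol list is lower in all red points than in all blue ones, and the ribosomal list moves opposite ways in the 2 sets.

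Metabolic lists lay mostly below 0, again without a called member. The 19 cholesterol synthesis genes had a median of -0.17, with 15 below 0 and 4 lower at an unadjusted p under 0.05, against 0 higher. Their mean level was 6.15, 6.14, 6.32 and 6.20 in the controls and 6.06, 6.08, 5.93 and 6.01 in the arrays labelled deficient, without overlap, and the untreated control read 6.01 as well. The members with the smallest p were Sc5d, at -0.42, and Hsd17b7, at -0.50, both late enzymes of the pathway (limma adjusted p of 0.85 and 0.868). The 19 glycolysis genes had a median of -0.18, with 17 below 0 (0 higher and 2 lower unadjusted). By set the glycolysis median was -0.02 in set A, with 8 of 19 above 0, and -0.24 in set B, with 2 above 0, while that of cholesterol synthesis was -0.10 and -0.30. Pyruvate kinase (Pkm) read 10.23, 10.76, 10.15 and 10.23, against 9.93, 10.19, 9.67 and 9.60, overlapping through array 2 (limma adjusted p = 0.723).

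For translation and respiration the direction depended on the array set. Ribosomal proteins of the cytosol, 42 genes, stood at a median of -0.24 in set A, with 2 above 0, and of 0.14 in set B, with 35 above 0. The 40 oxidative phosphorylation genes had medians of -0.24 and 0.06. The medians over both sets, -0.03 and -0.09, with 0 called in each list (1 higher and 0 lower, and 0 higher and 3 lower, unadjusted), pool these opposite values. In the controls the same lists were lower in set B than in set A, by medians of -0.23 and -0.21. Across all genes the change differed between sets for 3 (limma interaction, 0.0224%): Snrpe, a core protein of spliceosomal snRNPs (-0.38 in set A and 0.97 in set B), Rps3a1, a ribosomal protein (-0.43 and 0.70), and Atp5md, a small subunit of ATP synthase (-0.47 and 0.63).

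In the fit without a block, no gene of the lists around Zeb2 itself passed. Of 20 Zeb repressors and corepressor partners 0 passed (2 higher and 0 lower unadjusted, median -0.02). The smallest p was that of Mta3, described above, at 0.63 (limma adjusted p = 0.0555, and 0.0235 with the array set as a block). The list also held Ctbp2, a corepressor bound by Zeb2, at 0.16, and the deacetylase Hdac1, at -0.04. The 24 tested epithelial genes that Zeb factors repress had a median of 0.04 and 0 called (2 higher and 0 lower unadjusted). Cdh1, which encodes E-cadherin, read 4.33, 4.27, 4.37 and 4.64, against 4.70, 4.68, 4.88 and 4.30, and overlapped. The desmosomal gene Dsp stood at 4.76 ± 0.15 and 5.29 ± 0.18 (SD, n = 4 each, limma adjusted p = 0.909), without overlap. The 28 genes of TGF-beta and BMP receptors and Smads, whose signals Zeb2 modulates, had a median of -0.04 and 0 called (1 higher and 0 lower unadjusted). The 45 myeloid transcription factors had a median of 0.01 and 0 called (0 higher and 1 lower unadjusted), and the 9 Id and E proteins a median of 0.02 and 0 called (1 higher and 0 lower unadjusted).

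The 25 inflammatory cytokine and NF-kappa-B target genes had a median of 0.01 and 0 called (4 higher and 1 lower unadjusted). The chemokine Ccl4 stood at 6.59 and 7.15, and the prostaglandin synthase Ptgs2 at 10.07 and 10.48, without overlap for Ptgs2 (limma adjusted p of 0.791 and 0.847).

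Summed markers of other blood cells were low beside the neutrophil sums, and some were higher in single arrays. Not every marker was low. The T cell gene Cd3d read 6.39 to 7.31 in the controls and 6.75 to 7.58 in the arrays labelled deficient. The progenitor gene Kit read 5.75 to 6.20 and 5.96 to 6.58, and both stood above the array medians. The summed linear intensity of 5 mast cell and basophil markers was 74.5 to 106 in the controls and 106 to 194 in the arrays labelled deficient. Of these markers Mcpt8 did not overlap between the groups, and Cpa3, Fcer1a and Ms4a2 lay below the 40th percentile in all 8 arrays. For 5 eosinophil markers the sums were 115 to 150.1 and 148 to 228, with Epx and Il5ra below the 40th percentile in all 8 and Siglecf higher without overlap (6.13 ± 0.24 and 6.66 ± 0.20, SD, n = 4 each, limma adjusted p = 0.952). Megakaryocyte markers varied most, from 115 to 575 in the controls and from 133 to 1784 in the arrays labelled deficient. Among them the platelet chemokine Ppbp read 8.12, 4.30, 6.96 and 5.88 in the controls and 7.42, 4.66, 9.38 and 10.46 in the arrays labelled deficient, with overlap. The part of these cells in the called genes was not tested.

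Sums for B cells (156 to 164 in the controls and 152 to 184 in the arrays labelled deficient), T and NK cells (162 to 243 and 190 to 279), erythroid cells (82.9 to 115 and 87.0 to 99.7), plasmacytoid dendritic cells (139.7 to 175 and 151 to 169) and stem and progenitor cells (141 to 162 and 148 to 185) overlapped between the groups. Among 24 tested Ly-6C(hi) monocyte genes Crip1 alone was called. The markers Ccr2 and Ms4a6c lay at 3.66 to 4.46 and 3.28 to 4.07 in the controls. In the arrays labelled deficient they lay at 3.41 to 4.76 and 3.01 to 3.41, against means of 11.17 and 10.82 in control monocytes. Fn1 and F13a1 read 4.15 to 4.70 and 4.29 to 4.97 in the controls, and 4.31 to 4.63 and 4.22 to 4.61 in the arrays labelled deficient. Csf1r was not low, at 7.35 to 7.78 in the controls and 7.21 to 7.80 in the arrays labelled deficient. Its mean was 9.56 in control monocytes. Cx3cr1 read 4.94 to 6.08 and 5.25 to 6.23, against 9.60.

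The same contrast gave many more calls in monocytes, 1010 of 13387 genes (7.54%), 684 higher (5.11%) and 326 lower (2.44%). The median size of a change was 0.10 in neutrophils and 0.14 in monocytes, and 18 genes passed 2-fold in neutrophils against 312. The difference between the changes was itself called for 359 genes (limma interaction, 2.68%). Monocyte and neutrophil arrays carry the same numbers within each group. Whether same-numbered arrays share an animal is not in the labels, and every interaction here treated them as independent. The 684 genes called higher in monocytes had a median neutrophil change of -0.02, with 47.4% above 0, and the 326 called lower had -0.02 as well. Across genes, which are not independent replicates, the changes had a Pearson r of 0.0549.

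Neutrophil genes that rose in monocytes labelled deficient did not pass in neutrophils. Ly6g, the surface marker that defines mouse neutrophils, stood at 11.84 ± 0.19 and 11.73 ± 0.16 (SD, n = 4 each), a difference of -0.11, against a rise of 5.18 in monocytes. The resistin-like gene Retnlg differed by 0.00 and rose by 5.55 in monocytes, and the stefin Stfa3 differed by 0.01 against 4.78. The difference between cell types passed for each (limma adjusted p of 2.12e-08, 2.12e-08 and 1.98e-05). These genes were among those picked by the smallest p of that difference. Primary granule genes had a median of 0.08 in neutrophils and 2.09 in monocytes.

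Conversely, for 13 of the 16 genes called in neutrophils the change differed between the cell types, against 2.68% of all genes tested. The exceptions were Cstdc6, Adss and B930095G15Rik. The 16 were picked by their neutrophil change, which is part of this difference, so a high count was favoured in advance. Clec4n differed by -0.09 in monocytes, Csf1 by -0.19, Egr2 by -0.17 and Hsd17b2 by 0.45, none of which passed there (limma adjusted p of 0.884, 0.681, 0.772 and 0.26), and their interaction p-values, adjusted, were 0.00201, 0.00316, 0.0105 and 0.00203. Ifi203 alone was called in both, and in opposite directions, rising by 0.89 in neutrophils and falling by 0.61 in monocytes (limma adjusted p = 0.0267), where its control mean was 9.95 against 3.93 in neutrophils. In the controls 5 of the 16 genes were higher in monocytes than in neutrophils, against 45.0% of all genes.

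**Figure D4:**
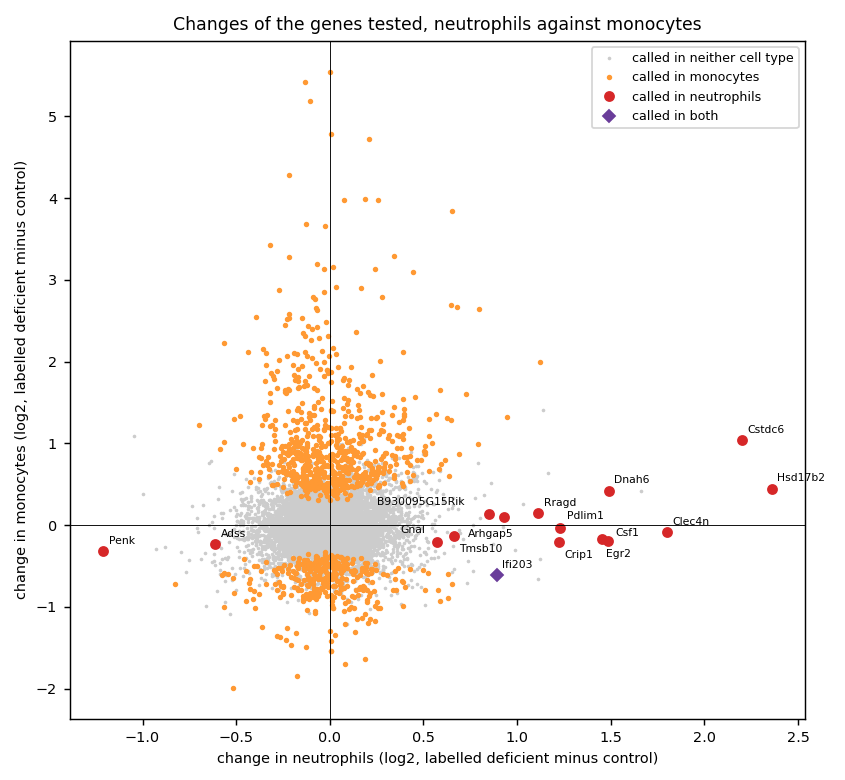
Change in monocytes (y axis) against change in neutrophils (x axis), both the log2 difference of arrays labelled Zeb2-deficient from controls, with 1 point for each of 13387 genes; orange marks genes called in monocytes, red those called in neutrophils and purple Ifi203, called in both. The orange points spread up and down near 0 on the x axis. Most red points spread along the x axis near 0 on the y axis, with Hsd17b2 at 2.36 and Penk at -1.21 on the x axis. Cstdc6, which did not pass in monocytes, lies at 1.04 on the y axis.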

How the data were processed

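Total RNA of sorted neutrophils was hybridised to Affymetrix Mouse Gene 1.0 ST arrays. The authors deposited log2 intensities per probe set made with RMA, as the submitters' processing notes say; its software is not given in the sources used here. Of 30177 probe sets, 21789 carried 1 gene symbol in the platform annotation, 1621 several and 6767 none, and only the first kind was used. Where a gene had more than 1 such probe set (999 genes), the brightest on average was taken. Genes above the 40th percentile of the array (4.40 to 4.50 in neutrophils) on 4 or more of the 18 arrays were tested, 13387 in all.

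A group-means model with 6 groups and 12 residual degrees of freedom was fitted to all 18 arrays with limma 3.58.1 in R 4.3.3, with a variance trend and two-sided p-values adjusted by Benjamini-Hochberg at 0.05. The fit was tested on simulated data with 200 changed genes and independent noise of the real spread. It recovered 16.5% of them at a change of 0.5, 90.5% at 1 and 99.5% at 2. Other genes called numbered 2, 11 and 7. Most changes of 0.5 were thus missed. The genes named are Zeb2 and Zeb1; the 10 highest and 10 lowest called changes, in this fit and with the array set as a block; the 10 highest and 10 lowest among genes whose groups do not overlap and whose higher group mean is above the median of all probe sets; up to 4 called members and the 2 smallest p of each list; and the 10 smallest p of the difference between cell types. Clone-like symbols fell outside it, and B930095G15Rik, the remaining called genes, and relatives, neighbours or markers of named genes were added after their values were seen. The comparison, the 33 gene lists and the array sets were chosen with earlier results of these data known. Lists were described by counts and medians, without a test.

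Replicate numbers 1, 2 and 4 occur in both groups. The deviations of same-numbered arrays from their group means correlated at 0.183 to 0.378 in 3 of 3 pairs. Differently numbered arrays of the same set also correlated, at 0.156 to 0.275, an overlapping range. These values therefore do not settle whether the numbers pair the arrays. The main fit did not pair them, and the replicate numbers entered as a block only in an alternative fit, within each cell type. The neutrophil change in that alternative fit came only from the arrays numbered 1, 2 and 4, the numbers found in both groups. No fit paired monocyte with neutrophil arrays. Alternatives were other scalings, filters, probe set rules and blocks, contrasts within each array set, the 8 arrays alone and leaving out each array.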

Additional observations from a re-analysis of the deposited data

Results flagged for a closer look

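Single arrays stood apart from the other 3 of their group for 14 of 198 groups checked, over 99 genes, by the gap to the nearest array as a share of the range; chance gives about 1 in 20. Among controls, control 5 was low for Hsd17b2 (4.54, the others 4.77 to 4.79) and high for Ccnb2 (7.92). Control 4 was low for Penk (5.09, the others 5.66 to 5.71) and Anxa4 (4.15) and high for Uhrf1 (5.08), and control 2 was high for Pkm (10.8) and low for Scarb2 (6.93). Among arrays labelled deficient, array 1 was low for Cmah (6.73) and high for B930095G15Rik (6.24), array 2 was high for Tlr6 (6.80), array 3 was low for Rps14 (10.5), and array 4 was high for Ptgs2 (10.9) and Dsp (5.57) and low for Ceacam1 (10.9).

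The change differed between monocytes and neutrophils, by the limma interaction, for 32 of these 99 genes, with adjusted p from 2.12e-08 to 0.0472. Over all genes tested the share was 2.68%. Some rules that named these genes used the neutrophil change or this difference itself, so a high count was favoured in advance. Given here is the monocyte change minus the neutrophil change. It was above 0 for the neutrophil genes Ly6g (5.29), Retnlg (5.55), Chil1 (4.52), Stfa3 (4.77), Cd24a (2.02), Il18rap (2.68), Il1f9 (3.90) and Ceacam1 (0.53), and for Retnla (5.56), Cldn1 (3.72), Ifit1bl2 (1.47), Zeb1 (1.17), Sc5d (1.08), Hsd17b7 (1.19), Rhov (0.93) and Penk (0.89). It was below 0 for Hsd17b2 (-1.91), Clec4n (-1.89), Csf1 (-1.68), Egr2 (-1.62), Anxa4 (-1.54), Ifi203 (-1.50), Crip1 (-1.43), Pdlim1 (-1.26), Mta3 (-1.22), Pou2f2 (-1.09), Dnah6 (-1.07), Rragd (-0.97), Scarb2 (-0.88), Arhgap5 (-0.84), Tmsb10 (-0.80) and Gnal (-0.78).

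The neutrophil change in set A minus that in set B was -1.34 for Snrpe, -1.14 for Rps3a1 and -1.10 for Atp5md (limma adjusted p of 0.0440, 0.0440 and 0.0465). For all 3, the arrays labelled deficient were lower than the controls in set A and higher in set B.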

How the results depend on the processing

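The 16 called genes kept their direction in the 22 alternatives, except that Arhgap5 and Gnal were not tested under the stricter filter, and none of the genes named turned its direction past the threshold. Csf1, Hsd17b2, Dnah6 and Penk passed in all 22, Clec4n and Tmsb10 in 21, Cstdc6 and Rragd in 19, Egr2 in 18, B930095G15Rik in 15, Pdlim1 in 13, Crip1 and Adss in 11 and Ifi203 in 10; of 21, Arhgap5 passed in 19 and Gnal in 8. With the mean of its probe sets Dnah6 changed by 0.55. The number of genes called, 16 with all arrays, was 27 with the array set within each cell type as a block, 9 with the 8 neutrophil arrays alone, 7 within set A and 37 within set B; the fit within each cell type, and the fit of the 8 arrays with the set as a block (23), were added after the data were seen. Leaving out 1 array gave 8 to 17, with 8 without array 1 labelled deficient and 9 without control 4. With the 8 neutrophil arrays alone, 8 of the 16 genes remained called. Pairing the arrays by the replicate block gave 11 calls, 10 of them among the 16, and the calls it lost are given beside those genes. That fit takes the change only from arrays whose number occurs in both groups. It had 4 residual degrees of freedom, against 12 in the main fit. An effect of pairing and one of using fewer arrays therefore cannot be told apart in its lost calls. The number of genes whose change differs between cell types, 359, was 567 with the array set as a block, 727 with the set within each cell type, 650 with array weights, 223 with the replicate block, 115 within set A and 733 within set B, and 253 to 389 without 1 array. Without an array, fewer arrays enter the fit. The values within a set come from a fit to all 18 arrays with the groups split by set (8 residual degrees of freedom). Each of its contrasts compares only the arrays of that set. The cause of the shifts was not tested. The Zeb2 change ran from 0.32 to 0.70 without 1 array and passed in no setting. Arrays give no read depth, and values near the 40th percentile carry little signal over background.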
